A study of Mus musculus with 4 samples.

Results

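Eosinophils, basophils and mast cells are granulocytes that arise from BM progenitors and are recognised by what they store in their granules and by the receptors they carry. Signal for 10 genes of these lineages was read in progenitors with and without the transcription factor Bcl11a. The 10 genes were chosen by name. *Epx*, *Prg2* and *Il5ra* stand for eosinophils, *Mcpt8* and *Prss34* for basophils, *Cpa3* and *Gzmb* for mast cells, and *Ms4a2*, *Fcer1a* and *Hdc* are shared by basophils and mast cells. Each of the 10 had exactly 1 probe set annotated with its symbol alone, and together they are 10 of 19938 genes measured. The lineages are not sealed off from each other. *Cpa3* is also used by basophils, *Prg2* is also found in other myeloid progenitors, and *Gzmb* is best known from cytotoxic lymphocytes.

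The data are 4 one-color arrays, 1 for each genotype (WT or Bcl11a-/-) of GMPs and of MPPs. Fetal liver cells from WT (Bcl11a(+/+)) or Bcl11a(-/-) fetuses were transferred into B6.SJL mice irradiated with 1200 rad, and donor-derived cells were sorted from the BM 4 weeks later by the labels (the methods give 4 or 6 weeks for chimeras). B6.SJL is the genetic background written for every sample, and it is the recipient strain in the methods. The mutant allele lacks the first exon of *Bcl11a* in all cells of the donor, so the cells had carried this deletion from the embryo on, in an irradiated host of WT genotype. MPPs, early progenitors able to give rise to all blood lineages, were sorted as CD150-negative cells of the Lin-Sca-1+c-Kit+ (LSK) fraction. GMPs give rise to granulocytes and macrophages. Cells of the same donor genotype were pooled, and the number and age of the mice in a pool are not given in the sources used here. Each condition has 1 array, so differences carry neither an error nor a p-value.

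Eosinophil granules hold a peroxidase, encoded by *Epx*, and major basic protein, encoded by *Prg2*, and the cells live and multiply on IL-5, whose specific receptor chain is the product of *Il5ra*. Basophils and mast cells bind IgE through a receptor made of an alpha chain (*Fcer1a*), a beta chain (*Ms4a2*) and a gamma chain (*Fcer1g*), and release histamine, which is made by histidine decarboxylase (*Hdc*). *Mcpt8* and *Prss34* encode basophil granule proteases, *Cpa3* encodes a carboxypeptidase of mast cell granules, and *Gzmb* encodes the serine protease granzyme B. The transcription factors GATA-1 and GATA-2 are known to act in all 3 lineages, and C/EBP epsilon acts in granulocytes.

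Because GATA factors are known regulators of these lineages, the 250 bases before the RefSeq start of each gene (build GRCm38.p6) were searched for GATAA on both strands. Promoter sequences were matched for 9 of the 10 genes, all but *Prg2*. GATAA was found before *Cpa3*, *Fcer1a*, *Il5ra*, *Prss34* and *Ms4a2*, which makes 5 of 9, while 22.6% of 32851 promoter windows of the same length hold it. Those before *Epx*, *Mcpt8*, *Gzmb* and *Hdc* did not. A C/EBP-like motif, TTGCNNAA on either strand, was found only before *Fcer1a*, and 9.56% of all windows hold it. It did not overlap the GATAA in that window. Shown are the windows of the lead gene of each lineage and that of *Ms4a2*, which holds GATAA 3 times, 5′ to 3′ with GATAA, or TTATC where it lies on the other strand, in capitals.
*Epx* (chr11:87875537-87875786, minus strand): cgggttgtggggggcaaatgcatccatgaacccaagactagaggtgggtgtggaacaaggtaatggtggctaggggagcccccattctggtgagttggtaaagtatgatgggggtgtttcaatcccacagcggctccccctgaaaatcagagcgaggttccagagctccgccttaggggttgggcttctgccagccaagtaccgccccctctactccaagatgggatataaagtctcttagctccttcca
*Mcpt8* (chr14:56085198-56085447, minus strand): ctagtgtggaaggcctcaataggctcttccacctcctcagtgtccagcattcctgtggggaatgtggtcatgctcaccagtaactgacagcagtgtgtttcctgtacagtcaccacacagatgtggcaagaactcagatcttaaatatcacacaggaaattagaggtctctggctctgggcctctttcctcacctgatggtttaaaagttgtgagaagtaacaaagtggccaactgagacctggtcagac
*Cpa3* (chr3:20242182-20242431, minus strand): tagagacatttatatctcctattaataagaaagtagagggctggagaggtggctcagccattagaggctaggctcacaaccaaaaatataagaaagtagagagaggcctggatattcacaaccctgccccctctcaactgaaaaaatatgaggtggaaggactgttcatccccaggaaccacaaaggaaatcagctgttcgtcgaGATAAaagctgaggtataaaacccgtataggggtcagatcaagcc
*Ms4a2* (chr19:11623720-11623969, minus strand): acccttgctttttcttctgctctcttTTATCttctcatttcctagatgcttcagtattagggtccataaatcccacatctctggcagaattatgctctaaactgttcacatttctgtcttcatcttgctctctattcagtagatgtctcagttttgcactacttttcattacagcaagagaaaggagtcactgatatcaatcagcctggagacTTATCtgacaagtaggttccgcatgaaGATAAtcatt
The GATAA before *Cpa3* begins 45 bases before the start. Those before *Ms4a2* begin 224, 37 and 10 bases before it. A match is a description of the letters only.

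The samples were first checked against their labels. *Bcl11a* itself was at a log2 signal of 9.89 in WT MPPs and 8.64 in Bcl11a-/- MPPs, and at 8.60 in WT GMPs and 7.77 in Bcl11a-/- GMPs. Its signal was thus lower in the Bcl11a-/- cells of each population but not lost. In Bcl11a-/- MPPs it was no lower than in WT GMPs. Signal for the neutrophil granule genes *Elane*, *Prtn3* and *Ctsg* lay between 12.47 and 13.05 on the GMP arrays, between 10.48 and 11.34 in WT MPPs and between 8.22 and 8.69 in Bcl11a-/- MPPs. The 2 pools also differed in other lineages. Of 5 erythroid marker genes measured, 4 were over 2-fold higher in Bcl11a-/- GMPs (median difference 1.69), and of 7 B lineage markers 4 were over 2-fold lower in Bcl11a-/- GMPs (median −1.16) and 7 in Bcl11a-/- MPPs (median −3.70). Of 6 neutrophil primary granule and GMP markers 4 were over 2-fold lower in Bcl11a-/- MPPs (median −2.35) and none in Bcl11a-/- GMPs (median −0.06). The part of these lineages in the results that follow was not tested. Of all genes, 0.361% were over 2-fold higher and 0.281% over 2-fold lower in Bcl11a-/- GMPs. In Bcl11a-/- MPPs these shares were 0.908% and 2.02%. Counts of list genes over 2-fold between genotypes, here and below, are to be read beside these shares.

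All signals below are log2 values after RMA, and a difference is Bcl11a-/- minus WT unless another order is stated. More than 2-fold, the study's threshold, is a difference of over 1 in size. Each value belongs to 1 probe set, so levels are compared between arrays for 1 gene and never between genes. In sorted bulk cells, fewer cells of a lineage and less RNA per cell cannot be told apart.

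**Figure D1:**
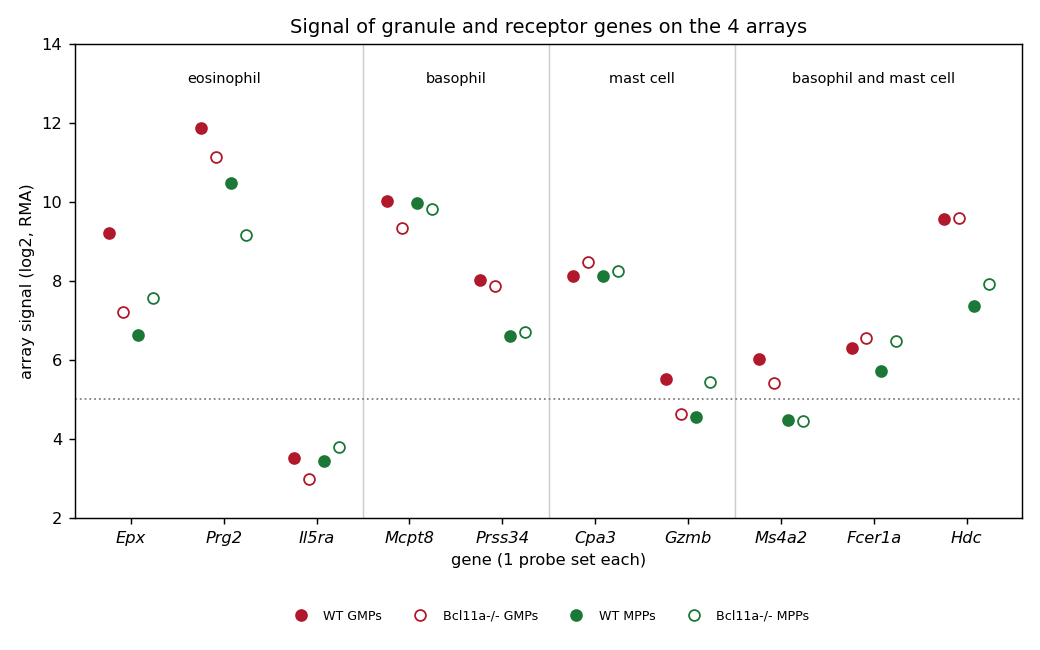
Array signal (log2, RMA) of each of the 10 genes in GMPs (red) and MPPs (green), with WT as filled and Bcl11a-/- as open circles, 1 array per point. The dotted line marks a log2 signal of 5, under which signals were treated as low. *Epx* stands at 9.21 in WT GMPs and between 6.64 and 7.56 on the other 3 arrays.

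Signal for the eosinophil peroxidase gene was higher in WT GMPs than on the other 3 arrays. *Epx* was at 9.21 in WT and 7.22 in Bcl11a-/- GMPs, and at 6.64 in WT and 7.56 in Bcl11a-/- MPPs. It was 3.96-fold lower in Bcl11a-/- than in WT GMPs (difference −1.98), the 5th lowest difference of the 19938 genes. In MPPs the difference ran the other way, and *Epx* was 1.89-fold higher in Bcl11a-/- cells (0.92), within 2-fold. Among WT cells *Epx* was 5.93-fold lower in MPPs than in GMPs, and among Bcl11a-/- cells it was 1.26-fold higher in MPPs. The 2 genotype comparisons share no array, but each of them shares arrays with the population comparisons, so a single high WT GMP value enters 2 of the 4.

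*Prg2* kept a large signal on every array and was lower in Bcl11a-/- cells of both populations. In GMPs it stood at 11.87 (WT) and 11.15 (Bcl11a-/-), and in MPPs at 10.47 (WT) and 9.17 (Bcl11a-/-). The difference was −0.73 in GMPs, 1.65-fold lower, and −1.30 in MPPs, 2.47-fold lower. *Epx* was the only one of the 10 genes over 2-fold between the GMP arrays, where 0.281% of all genes were lower and 0.361% higher by that much in Bcl11a-/- cells. *Prg2* was the only one between the MPP arrays, where 2.02% of all genes were lower and 0.908% higher. With a single gene of 10 past 2-fold in each, nothing particular to the set is read from these counts. In order of level *Prg2* ran from WT GMPs down to Bcl11a-/- MPPs, and GMPs were above MPPs in both genotypes, by 2.64-fold in WT and 3.95-fold in Bcl11a-/- cells. The same order of arrays was seen for the GMP marker gene *Ms4a3*, at 12.22, 12.11, 9.18 and 6.50. The mean signal of the 6 neutrophil primary granule and GMP markers, *Ms4a3* among them, was 10.35 in WT and 8.63 in Bcl11a-/- MPPs, and their part in the *Prg2* difference was not tested. *Il5ra* was low throughout, at 3.51, 2.98, 3.45 and 3.79 in the same order, and its differences of −0.52 in GMPs and 0.34 in MPPs lie under a log2 signal of 5.

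Of 9 further eosinophil genes, 6 were measured with a symbol of their own. In Bcl11a-/- GMPs 2 of the 6 were over 2-fold lower, beside 0.281% of all genes. The other 4 lay within 2-fold, and the median was −0.20. The 2 that were lower also encode granule proteins. *Ear6*, an eosinophil-associated ribonuclease, was at 9.24 in WT and 7.83 in Bcl11a-/- GMPs, 2.67-fold lower in the latter, and at 8.31 and 8.63 in the MPPs. *Prg3*, a major basic protein homolog whose gene lies next to *Prg2*, was at 7.95, 6.93, 7.07 and 7.14, 2.02-fold lower in Bcl11a-/- GMPs. That is only just past the threshold, and *Prg3* was at −0.99 after lowess centring. Like *Epx*, both had their highest signal in WT GMPs. Their lowest was in Bcl11a-/- GMPs, while that of *Epx* was in WT MPPs. *Ear6* belongs to a family of very similar genes, and its probes may also find the others.

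Other eosinophil genes did not share this difference. *Siglecf*, an inhibitory surface lectin of eosinophils, differed by 0.18 in GMPs, *Alox15*, a lipoxygenase, by −0.25 and *Cebpe*, which encodes C/EBP epsilon, by −0.15. *Ccr3*, the eotaxin receptor gene, was at 4.16 and 4.40 in WT and Bcl11a-/- GMPs. In MPPs all 6 genes of this list had higher values in Bcl11a-/- cells, with a median of 0.41 beside 0.05 over all genes. Markers of other lineages also had higher values there, 5 of 5 erythroid (median 0.48), 4 of 4 megakaryocyte (median 0.45) and 6 of 8 late neutrophil genes (median 0.16), and their part in this shift was not tested. Only *Ccr3* was over 2-fold, from 4.57 to 5.60, and it was at 0.60 once signals under 5 were set to 5. *Cebpe* went from 7.53 to 8.40, 1.83-fold higher.

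**Figure D2:**
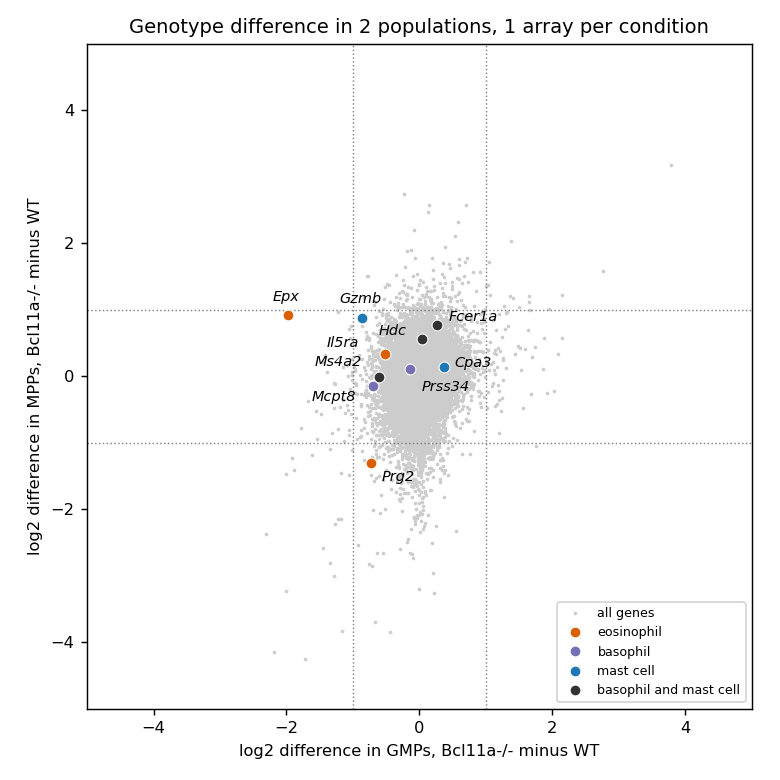
Log2 difference between Bcl11a-/- and WT cells in GMPs (x axis) and MPPs (y axis) for all 19938 genes (grey) and the 10 genes by lineage (colors), with dotted lines at a 2-fold difference. *Epx* lies at −1.98 in GMPs and 0.92 in MPPs, and *Prg2* is below 0 on both axes.

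The basophil protease genes differed less. *Mcpt8* was at 10.02 (WT) and 9.33 (Bcl11a-/-) in GMPs and at 9.96 (WT) and 9.81 (Bcl11a-/-) in MPPs. Bcl11a-/- GMPs were the lowest array, 1.62-fold below WT GMPs, and the other 3 arrays lay between 9.81 and 10.02. WT MPPs and WT GMPs differed by −0.06 for *Mcpt8*, a difference whose direction turned when the arrays were normalized in another way. *Prss34* was at 8.02, 7.88, 6.61 and 6.72 in the same order. It followed the population and not the genotype, 2.66-fold lower in WT MPPs than in WT GMPs and 2.24-fold lower in Bcl11a-/- MPPs than in Bcl11a-/- GMPs, while the genotype differences were −0.13 and 0.11.

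All of 8 further basophil genes were measured. In Bcl11a-/- GMPs 1 was over 2-fold higher and 2 were over 2-fold lower, beside 0.361% and 0.281% of all genes. In Bcl11a-/- MPPs 1 was over 2-fold lower, beside 2.02% of all genes. The genes that were lower encode chemokines, which many myeloid cells also make. *Ccl3* was at 10.62 in WT and 9.45 in Bcl11a-/- GMPs, and at 9.70 in WT and 7.56 in Bcl11a-/- MPPs, 2.26-fold and 4.41-fold lower. *Ccl4* was 2.50-fold lower in Bcl11a-/- GMPs and 1.81-fold lower in Bcl11a-/- MPPs. The gene that was higher in GMPs was the cytokine gene *Il6*, from 3.45 to 4.49, and that difference was 0 once signals under 5 were set to 5. The other genes of the list varied in level. *Il13*, a cytokine gene, lay between 5.36 and 5.99 on the 4 arrays. *Cd200r3*, a surface receptor of basophils and mast cells, lay between 2.94 and 3.44, and *Il4* between 4.40 and 4.75.

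The mast cell carboxypeptidase gene had the narrowest range over the 4 arrays of the 10 genes, although *Prss34* differed less between genotypes. *Cpa3* was at 8.12 in WT and 8.49 in Bcl11a-/- GMPs and at 8.12 in WT and 8.26 in Bcl11a-/- MPPs, a range of 0.37 over the 4 arrays. Its differences were 0.37 in GMPs and 0.14 in MPPs. *Gzmb* was at 5.51, 4.63, 4.55 and 5.44 in the same order, 1.83-fold lower in Bcl11a-/- GMPs and 1.84-fold higher in Bcl11a-/- MPPs. Its differences of −0.87 and 0.88 are within 2-fold, and on 2 of the arrays the signal was under 5. *Gzmb* is also a gene of NK cells and cytotoxic T cells. Of 10 marker genes of those cells 5 were under 5 on all 4 arrays, *Ncr1* and *Klrb1c* among them. The mean signal of the 10 lay between 5.11 and 5.26. In Bcl11a-/- MPPs 9 of the 10 were within 2-fold, and *Nkg7*, also a granule gene of myeloid progenitors, was 2.33-fold lower.

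Genes of mature mast cells were at low signal in every population. Of 18 further mast cell genes 16 were measured with a symbol of their own, and 11 of the 16 were under a log2 signal of 5 on all 4 arrays. They included the chymase and tryptase genes *Cma1*, *Mcpt1*, *Mcpt2*, *Mcpt4*, *Tpsab1* and *Tpsb2*. *Mcpt1* lay between 2.53 and 2.93. The 2 genes of the list with the highest signal are not particular to mast cells. *Kit*, the stem cell factor receptor gene by which both populations are commonly sorted, was at 9.30, 9.43, 9.49 and 9.62, and *Srgn*, which encodes the granule proteoglycan core serglycin, was between 11.51 and 11.90.

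Of the mast cell list 1 gene was over 2-fold higher in both populations, beside 0.361% of all genes in GMPs and 0.908% in MPPs. *Slc18a2* encodes the vesicular monoamine transporter that loads histamine and serotonin into granules, and it was at 6.54 in WT and 7.55 in Bcl11a-/- GMPs and at 6.70 in WT and 8.05 in Bcl11a-/- MPPs. It was 2.01-fold and 2.55-fold higher in Bcl11a-/- cells, and the GMP difference was 0.99 after median centring. The other 15 genes were within 2-fold in both comparisons, with list medians of 0.09 in GMPs and 0.13 in MPPs beside 0.01 and 0.05 over all genes.

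*Hdc*, whose product makes histamine, had a clear difference between populations and almost none between genotypes in GMPs. The GMP arrays had 9.56 (WT) and 9.60 (Bcl11a-/-), the MPP arrays 7.36 (WT) and 7.93 (Bcl11a-/-). MPPs were 4.62-fold below GMPs in WT cells and 3.19-fold below in Bcl11a-/- cells. The genotype difference was 0.03 in GMPs and 0.57 in MPPs.

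The chains of the IgE receptor had lower signal in MPPs than in GMPs of the same genotype, but did not follow each other between genotypes. For *Fcer1a* in Bcl11a-/- cells the population difference was only −0.08, beside a median of 0.10 over all genes. *Fcer1a* was at 6.30 in WT and 6.57 in Bcl11a-/- GMPs and at 5.71 in WT and 6.49 in Bcl11a-/- MPPs, with differences of 0.27 in GMPs and 0.78 in MPPs, 1.71-fold higher. *Ms4a2* was at 6.02, 5.41, 4.47 and 4.46, 1.52-fold lower in Bcl11a-/- GMPs, and both MPP arrays were under 5. *Fcer1g*, whose chain also serves other Fc receptors, was at 10.52, 10.57, 10.10 and 9.71. Thus WT MPPs had the lowest alpha chain signal, both MPP arrays the lowest beta chain signal and Bcl11a-/- MPPs the lowest gamma chain signal. None of the 8 measured signaling genes downstream of the receptor, among them *Syk*, *Btk* and *Plcg2*, was over 2-fold between genotypes, with medians of −0.05 in GMPs and −0.06 in MPPs.

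Receptor genes of these lineages, most of them for growth factors and cytokines, were within 2-fold between genotypes. Of 8 measured receptor genes, the Fc receptor gene *Fcer1g* among them, none was over 2-fold in either population, with medians of 0.03 in GMPs and 0.14 in MPPs. *Csf2rb*, which encodes the beta chain shared by the IL-3, IL-5 and GM-CSF receptors, differed by 0.05 and −0.27. *Csf2rb2*, the beta chain used by IL-3 alone, was 1.82-fold higher in Bcl11a-/- MPPs (8.52 against 7.66) and differed by 0.13 in GMPs. *Il3ra*, the specific chain of the IL-3 receptor, was 1.54-fold lower in Bcl11a-/- MPPs.

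Both GATA factor genes of these lineages were higher in Bcl11a-/- GMPs. *Gata2* was at 7.68 in WT and 8.88 in Bcl11a-/- GMPs, 2.29-fold higher, and in MPPs it was 1.91-fold higher, 8.49 against 7.56. *Gata1* was at 6.44 and 7.47 in GMPs, 2.04-fold higher, and at 6.79 and 7.19 in MPPs. They were the 2 of 19 transcription factor genes over 2-fold in GMPs, where 0.361% of all genes were higher by that much. *Zfpm1*, which encodes their cofactor FOG-1, was 1.96-fold higher there. Both GATA genes also serve red cell development, and the 5 erythroid markers, *Klf1* (1.69), *Rhag* and *Car1* among them, were all higher in Bcl11a-/- GMPs. The part of erythroid cells in the GATA values was not tested.

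Of the 5 genes with GATAA in the promoter window, *Cpa3* and *Fcer1a* were higher by 0.37 and 0.27 in Bcl11a-/- GMPs, and *Ms4a2*, *Il5ra* and *Prss34* were lower by their values above. Of those with none, *Epx* (−1.98), *Gzmb* (−0.87) and *Mcpt8* (−0.69) were lower, and *Hdc* differed by 0.03. A link between the motif and the differences was not tested. In MPPs 1 of the 19 factor genes was over 2-fold, higher in Bcl11a-/- cells, beside 0.908% of all genes. This was *Id2*, which encodes an inhibitor of E proteins, from 6.18 to 7.34 and 2.24-fold higher in Bcl11a-/- cells. In GMPs *Id2* was 1.45-fold lower. *Cebpa*, needed to form GMPs, differed by 0.23 and 0.02.

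**Figure D3:**
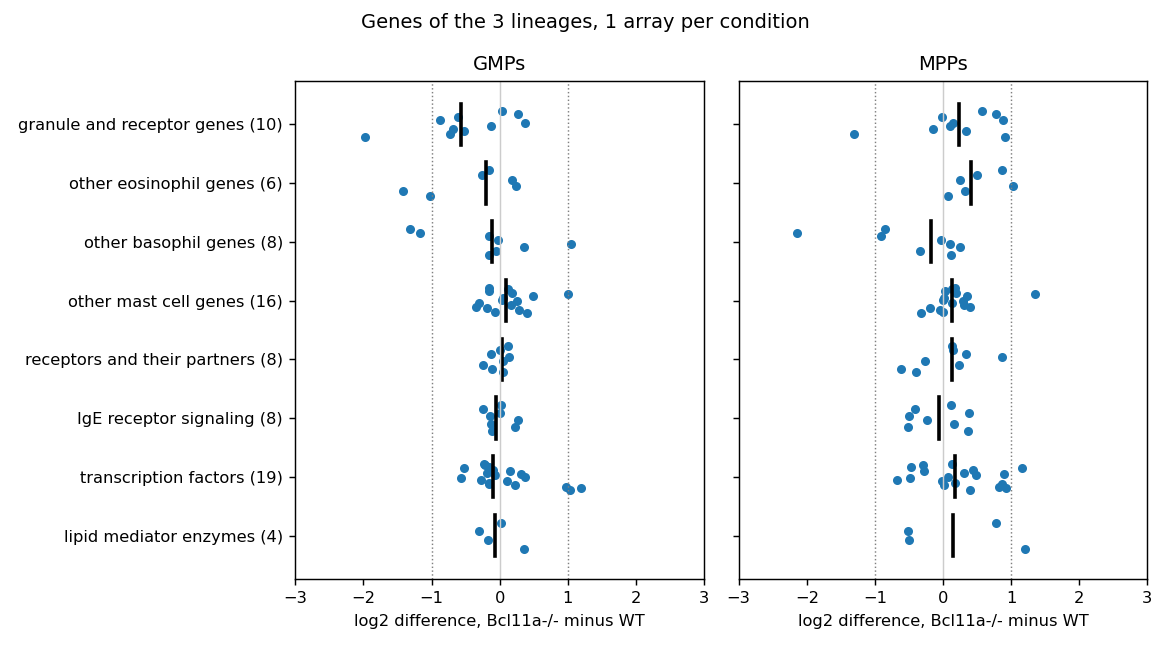
Log2 difference between Bcl11a-/- and WT cells for the 10 genes and for 7 lists of other genes of these lineages, with GMPs on the left and MPPs on the right. A dot stands for 1 gene, black bars are medians, numbers in brackets are genes measured and dotted lines lie at 2-fold. The median of the 10 genes is −0.57 in GMPs and 0.24 in MPPs.

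Enzymes that make leukotrienes and prostaglandins, lipid mediators of all 3 lineages, were mixed. Of 4 measured, none was over 2-fold in GMPs and 1 was over 2-fold higher in Bcl11a-/- MPPs, beside 0.908% of all genes. *Alox5*, the 5-lipoxygenase gene, was 2.30-fold higher in Bcl11a-/- MPPs, 7.99 against 6.79, and was at 7.53 and 7.89 in GMPs. *Alox5ap*, which encodes its activating protein, differed by −0.17 in GMPs and −0.50 in MPPs, and *Ltc4s*, the leukotriene C4 synthase gene, by −0.30 and −0.51. *Hpgds*, the prostaglandin synthase gene of the 4, was 1.72-fold higher in Bcl11a-/- MPPs, 5.49 against 4.71. In GMPs it was at 4.16 (WT) and 4.19 (Bcl11a-/-), so only Bcl11a-/- MPPs were above a log2 signal of 5.

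Over the 10 genes, 9 lay within 2-fold in each genotype comparison and none was over 2-fold higher. The median difference of the 10 was −0.57 in GMPs, where 7 had a lower value, beside 0.01 over all genes. In MPPs it was 0.24, where 7 had a higher value, beside 0.05. With signals under 5 set to 5, the medians were −0.32 and 0.12.

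The lineages did not move as one. All 3 eosinophil genes had lower values in Bcl11a-/- GMPs (−1.98, −0.73 and −0.52), as did both basophil genes (−0.69 and −0.13). The −0.52 is that of *Il5ra*, which was under a log2 signal of 5 on every array. That difference was 0 once signals under 5 were set to 5. The mast cell pair was split (0.37 and −0.87), and of the 3 shared genes 2 were near or above 0 and *Ms4a2* was below. In MPPs the eosinophil genes ran from −1.30 to 0.92, and the basophil genes were −0.15 (*Mcpt8*, 0.14 after quantile normalization anew) and 0.11.

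**Figure D4:**
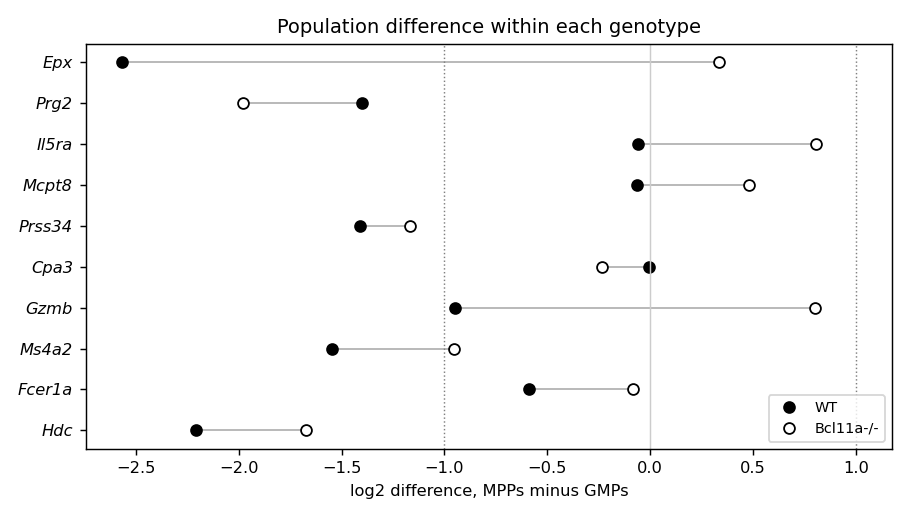
Log2 difference, MPPs minus GMPs, for each of the 10 genes in WT (filled) and Bcl11a-/- (open) cells, with dotted lines at a 2-fold difference. All 10 filled circles lie below 0, between −2.57 and −0.01 (*Mcpt8* and *Cpa3*, nearest to 0 with *Il5ra*, turn sign under other normalizations), and 4 open circles lie above 0.

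Between populations, WT GMPs had more signal than WT MPPs for each of the 10 genes, but for *Mcpt8* and *Cpa3* the direction turned after lowess centring or quantile normalization anew. In WT cells 5 of the 10 were over 2-fold lower in MPPs (*Epx*, *Hdc*, *Ms4a2*, *Prss34* and *Prg2*), none was over 2-fold higher, and the median was −1.18. Of all genes, 2.8% were lower and 1.33% higher by that much. For *Mcpt8* and *Cpa3* the WT populations differed by −0.06 and −0.01, and by 0.08 for both after lowess centring. In Bcl11a-/- cells 3 of the 10 were over 2-fold lower in MPPs (*Prg2*, *Hdc* and *Prss34*) and none over 2-fold higher, beside 5.82% and 2.36% of all genes. There the median was −0.16, and 4 genes (*Epx*, *Il5ra*, *Mcpt8* and *Gzmb*) had higher values in MPPs. The population gap was thus smaller in Bcl11a-/- than in WT cells for the median of the 10 genes. For the neutrophil primary granule markers it was larger, with a median MPP minus GMP difference of −1.68 in WT and −4.07 in Bcl11a-/- cells. The median over all genes was 0.06 in WT and 0.10 in Bcl11a-/- cells.

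Genes next to these on the chromosomes, or 2 genes away, were read for comparison. *Prg3*, beside *Prg2*, was lower with it in Bcl11a-/- GMPs (−1.02 and −0.73) but not in Bcl11a-/- MPPs (0.07 and −1.30). On the other side of *Prg2*, *Slc43a3* differed by 0.10 in GMPs and −0.54 in MPPs. *Rtn4rl2* and *P2rx3*, each 2 genes away from *Prg2*, differed by 0.09 and 0.00 in GMPs and by 0.07 and −0.23 in MPPs. *Atp8b4*, 2 genes away from *Hdc*, was lower in MPPs than in GMPs as *Hdc* was, by −1.42 in WT and −2.56 in Bcl11a-/- cells. The genes directly beside *Hdc* did not share this. *Slc27a2* differed between populations by −0.05 in WT and −0.07 in Bcl11a-/- cells, and *Gabpb1* by 0.08 and 0.52. *Ms4a6d* and *Ms4a4d*, of the same family and locus as *Ms4a2*, differed by −0.45 and −0.39 in GMPs, where *Ms4a2* differed by −0.61. Both were under a log2 signal of 5 on all 4 arrays. On the other side of *Ms4a2*, *Ms4a3* differed by −0.11 and *Oosp2* by 0.18 in GMPs. *Mks1*, beside *Epx*, and *Lpo*, 2 genes away from it, differed by −0.33 and 0.06 in GMPs. *Ctsg*, the cathepsin G gene beside *Mcpt8* in the chymase locus, was 4.77-fold lower in Bcl11a-/- MPPs, where *Mcpt8* differed by −0.15. *Ms4a3*, beside *Ms4a2*, was 6.40-fold lower in Bcl11a-/- MPPs, where *Ms4a2* differed by −0.01. Of 13 measured proteases of the chymase locus, 1 (*Ctsg*) was over 2-fold in MPPs and none in GMPs, and 9 were under a log2 signal of 5 on all 4 arrays.

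The genes whose pattern over the 4 arrays was nearest to that of the lead genes were found by the Euclidean distance of mean-centred log2 values among 10152 genes with a signal of at least 6 on any array. *Tmem53*, *Lpl* and *Clec4a2* were nearest to *Epx*, at distances of 0.95, 1.02 and 1.02. These are large beside those for *Mcpt8* (*Grap*, *Plekhm3* and *Tnf*, 0.06 to 0.10) and *Cpa3* (*Ubxn2b*, *Arhgap10* and *Pank1*, 0.04 to 0.05). *Clec4a2*, a myeloid lectin receptor gene, was at 8.49, 7.95, 6.53 and 7.53 in the order used above. With 4 arrays such a likeness is a description only.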

How the data were processed

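Amplified, biotin-labeled RNA was hybridised to 4 one-color arrays, 1 per population and genotype, and the authors deposited log2 signals after RMA with quantile normalization in ArrayStar (version not given in the sources used here). Background correction and the summary over probes are the authors' own, and quantile normalization can hide a change in total mRNA per cell.

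Of 30177 rows, 1324 unannotated rows with the lowest numbers were set aside as controls, and 28853 probe sets were counted. Symbols came from the platform's annotation (1 symbol for 21789 probe sets, several for 1621, 5443 unnamed here). Probe sets carrying the same single symbol were averaged to a gene value. Log2 differences were computed in Python 3.11.15 with pandas 2.3.3 and statsmodels 0.14.6, tested on simulated data, and counted past 2-fold. With 1 array per condition, no test was run, and the number of arrays limits the precision.

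The genes, the 12 lists and 8 marker lists were chosen with earlier results of these data known. Named are the 10 genes, up to 3 genes of a list past 2-fold and up to 2 with the highest signal, the 3 genes nearest in pattern to each lead gene, and *Bcl11a*. Other genes named (chromosome neighbours, and list genes within 2-fold or at low signal) were chosen after their values were seen. Listed genes without a probe set of their own are not analysed here. Alternatives were a floor at 5, a filter at 6, lowess (span 0.3) and median centring, quantile normalization anew, the brightest probe set, and thresholds of 1.5-fold and 3-fold. No column was left unmapped.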

Additional observations from a re-analysis of the deposited data

Results flagged for a closer look

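Genes whose difference between Bcl11a-/- and WT cells ran in opposite directions in GMPs and MPPs are given here, with 1 array per condition, so that the difference between the populations was not tested. The MPP difference minus the GMP difference was 2.90 for *Epx* (0.92 and −1.98), the largest of the 10 genes, and 1.75 for *Gzmb* (0.88 and −0.87). It was 0.86 for *Il5ra*, all of it under a log2 signal of 5, and 0.24 for *Prss34*. *Gzmb* was under 5 in Bcl11a-/- GMPs and in WT MPPs. With signals under 5 set to 5, its differences were 0.44 in MPPs and −0.51 in GMPs. Among the other genes of the 12 lists over 2-fold in either population, the MPP minus GMP value was 1.74 for *Ear6* and 1.09 for *Prg3*. For *Id2* it was 1.69 and for *Ctsg* −2.32. The 8 marker lists were left out of this search. In them *Pf4* (−0.35 in GMPs and 1.20 in MPPs) and *Bst2* (0.10 and −1.79) also ran in opposite directions. *Epx*, *Ear6* and *Prg3*, which all encode eosinophil granule proteins, had the lower value in Bcl11a-/- GMPs, and *Ctsg*, a neutrophil granule gene, in Bcl11a-/- MPPs.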

How the results depend on the processing

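Of 230 values of the 10 genes under the alternatives, 214 stayed on their side of 2-fold in the same direction, 6 passed 2-fold, 5 became exactly 0 with signals under 5 set to 5 (*Il5ra* in all 4 comparisons and *Ms4a2* between the MPP arrays) and 5 took the other sign. The latter were *Mcpt8* between the MPP arrays (0.14 after quantile normalization anew) and, between the WT populations, *Mcpt8* (0.08 and 0.22) and *Cpa3* (0.08 and 0.12) after lowess centring and quantile normalization anew. *Gzmb*, WT MPPs minus WT GMPs, became −1.10, −1.01 and −1.09 after lowess centring, median centring and quantile normalization anew. *Ms4a2*, MPPs minus GMPs in Bcl11a-/- cells, became −1.14, −1.06 and −1.13. Both were at −0.95 as deposited. With signals under 5 set to 5, *Gzmb* was at −0.51 and *Ms4a2* at −0.41. *Epx* in GMPs and *Prg2* in MPPs stayed over 2-fold under every setting of the values. The brightest probe set changed nothing, since each gene has 1. The filter at 6 only drops genes and leaves the difference of each kept gene as it was. Values under both settings are among the 230 and could not have moved, so the 214 overstate how stable the differences are. At 1.5-fold the genes counted were 5 in GMPs, 4 in MPPs and 6 between the Bcl11a-/- populations. At 3-fold they were 0 in MPPs and 2 between the WT populations. The share of all genes past 1.5-fold or 3-fold was not counted, so nothing about the set is read from these counts. With signals under 5 set to 5 the median differences were −0.32 in GMPs, 0.12 in MPPs and −0.80 between WT populations. Over genes with a signal of at least 6 they were −0.37 in GMPs and −1.41 between WT populations. Between Bcl11a-/- populations the median was −0.26 after median centring and −0.05 after quantile normalization anew. Over all genes, 128 were over 2-fold in GMPs, 81 of those with a signal of at least 6, and by probe sets 193. By probe sets there were 1125 in MPPs (583 genes) and 2595 between the Bcl11a-/- populations (1630 genes).

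Alternatives for the lists were chosen after seeing the data. The 2 eosinophil genes lower in GMPs became 1 after lowess centring or quantile normalization anew (*Prg3* was at −0.99 after the former), and the 1 higher in MPPs became 0 under all settings but the brightest probe set. The mast cell count in GMPs became 0 after median centring, the basophil count in MPPs 2 after lowess centring or quantile normalization anew, and the transcription factor count in MPPs 2 after the latter, with *Gata2* at 1.02. No paired analysis was possible because each group has 1 array. Leaving out a replicate could not be done for the same reason.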
